A study of Mus musculus with 2 samples.

Results

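The genes described here are Nfkb1, Nfkb2, Rel, Rela, Relb and Bcl3, the 5 genes of the NF-kB transcription factor family and 1 atypical member of its inhibitor family. They were taken by symbol from the 31053 genes counted in 2 single-cell RNA libraries, and all 6 were found. Bone marrow of wild-type (WT) 129Sv mice was cultured with 10% serum and 50 ng/ml M-CSF, a growth factor from which marrow cells become macrophages. From day 7 of culture, 1 library's cells received Tamm-Horsfall protein (THP, or uromodulin, made in the kidney tubule) at 1 µg/ml for 18 h, in a truncated form that does not polymerize. The cells of the other library received the vehicle, 5% dextrose, for the same time. The sources used here give neither the age and sex of the mice nor whether marrow was pooled.

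NF-kB factors are dimers of 5 subunits that share a DNA-binding Rel homology region. Rela (p65), Rel (c-Rel) and Relb carry activation domains, whereas Nfkb1 and Nfkb2 encode the precursors p105 and p100, from which the DNA-binding subunits p50 and p52 are made. In resting cells inhibitors of the IkB family hold the dimers in the cytoplasm. The canonical route, driven by Toll-like and cytokine receptors, frees dimers such as p50 with Rela or Rel, and the non-canonical route processes p100 to release p52 with Relb. Bcl3 resembles an IkB protein but acts in the nucleus, where it binds p50 and p52 dimers on DNA. In macrophages several of these genes are known to be NF-kB target genes themselves.

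With 1 library per group there was no replicate check, and treatment cannot be told apart from culture dish or library preparation. Every interval below is a 95% interval for counting error only, and no p-value was computed. Kept cells numbered 12123 with THP and 10978 with vehicle, with 224825484 and 207662132 unique molecular identifiers (UMIs, each tagging 1 captured RNA molecule) and medians of 16113 and 17223 per cell. Of the cell barcodes, 38 kept ones occurred in both libraries, and leaving them out moved no member's log2 ratio by more than 0.0028. Values are CPM, UMIs of a gene summed over cells per 1000000 UMIs of the same cells. For the log2 ratio 1 CPM was added to both values and THP was divided by vehicle. The size rule asked for 10 CPM or more in a library and a 2-fold difference or more on that scale.

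Promoter sequences are shown first. RefSeq promoter windows (GRCm38.p6, 250 bases before to 50 after a start) were matched by symbol for 4 of the 6 members, with 6 windows in all. They were searched on both strands for the kB consensus, the decameric NF-kB binding motif, and 3 of the 4 genes and 5 of the 6 windows, some of which overlap, held a match. Of all 27025 genes with a window, 9.55% held one, and of all 32851 windows 8.46%. Capitals mark the matches, and sequences run 5′ to 3′ on the gene's strand.
Nfkb2, the 250 bases before its first start (chr19:46304487-46304736, plus strand): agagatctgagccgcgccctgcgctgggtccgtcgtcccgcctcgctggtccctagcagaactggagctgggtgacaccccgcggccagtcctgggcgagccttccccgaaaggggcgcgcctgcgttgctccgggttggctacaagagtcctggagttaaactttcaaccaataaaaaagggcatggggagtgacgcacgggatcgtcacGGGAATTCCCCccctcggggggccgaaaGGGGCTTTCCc
Nfkb2, the first 30 bases after its second start (chr19:46305695-46305724, plus strand): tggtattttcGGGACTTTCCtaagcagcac
Bcl3, 30 bases around its start (chr7:19822734-19822763, minus strand): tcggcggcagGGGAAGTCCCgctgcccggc
Rel, the 250 bases before its start (chr11:23770970-23771219, minus strand): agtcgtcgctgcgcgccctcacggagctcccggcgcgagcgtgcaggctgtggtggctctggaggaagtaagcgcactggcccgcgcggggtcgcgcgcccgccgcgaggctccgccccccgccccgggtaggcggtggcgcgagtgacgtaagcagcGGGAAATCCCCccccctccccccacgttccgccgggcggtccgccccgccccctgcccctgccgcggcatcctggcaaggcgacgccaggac

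Across its windows Nfkb2 had kB matches at 4 separate places, 2 of them before the first start, beginning 39 and 11 bases upstream. The first of these and the Rel match, 92 bases upstream, each hold a second match shifted by 1 base. The Bcl3 match begins at base 3 after the RefSeq start. Starts are those of the RefSeq windows, and the gene coordinates given below for Nfkb2 and Bcl3 reach further upstream. No match lay in the Rela window, and Nfkb1 and Relb had no window. A match is a run of letters and not a measured binding site. Whether matches bear on the differences between the libraries was not tested.

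The members that differed most were Nfkb2, Bcl3 and Relb, 2.93-fold, 2.92-fold and 2.53-fold higher in the THP library. Nfkb1 was 1.48-fold and Rela 1.28-fold higher. Rel had the same level within counting error. The size rule was passed by 3 of the 6 members as higher and by 0 as lower, beside 0.911% higher, 2.97% lower and 3.88% in either direction among the 8012 genes at 10 CPM or more. With TMM scaling factors, 135 of all genes were higher and 70 lower, in place of 73 and 238, and the same 3 members passed. The median log2 ratio was 0.93 over the members and -0.18 over those 8012 genes.

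The non-canonical pair is described first. Nfkb2 (ENSMUSG00000025225, GRCm38 chromosome 19, 46304320 to 46312385, plus strand), the gene of p100 and p52, reached 57.3 CPM (56.3 to 58.3) with THP and 19.6 CPM (19.0 to 20.2) with vehicle. Its log2 ratio was 1.502, higher than in 99.5% of the genes tested. Its last 299 annotated bases overlap the oppositely oriented gene Psd, which had 119 and 62 UMIs against 12872 and 4064 for Nfkb2. The sources used here do not say whether strand was used in counting.

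Relb (ENSMUSG00000002983, chromosome 7, 19606217 to 19629438, minus strand), the partner of p52, stood at 53.6 CPM (52.6 to 54.6) with THP. With vehicle it was at 21.2 CPM (20.6 to 21.9), which makes the log2 ratio 1.30. Both genes of this dimer therefore lay far from the vehicle value relative to counting error.

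For Bcl3 (ENSMUSG00000053175, chromosome 7, 19808462 to 19822770, minus strand) the levels were 28.4 CPM (27.7 to 29.1) and 9.71 CPM (9.29 to 10.1), and the log2 ratio was 1.46. Its vehicle level lay just under the 10 CPM of the size rule. Of its 2 annotated antisense neighbours, Gm16174 had 66 and 54 UMIs and Gm16175 had 0 in both libraries, against 6384 and 2017 for Bcl3.

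Of the canonical subunits, Nfkb1 (ENSMUSG00000028163, chromosome 3, 135584655 to 135691547, minus strand), the gene of p105 and p50, was measured at 124 CPM (123 to 126) with THP and 84.1 CPM (82.9 to 85.4) with vehicle. Its log2 ratio of 0.56 was outside counting error and did not pass the size rule. Rela (ENSMUSG00000024927, chromosome 19, 5637483 to 5648130, plus strand) was at 46.2 CPM (45.3 to 47.1) with THP and 36.001 CPM (35.2 to 36.8) with vehicle, and its log2 ratio was 0.35.

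Rel (ENSMUSG00000020275, chromosome 11, 23736847 to 23770970, minus strand), the subunit characteristic of blood cells, was at 50.1 CPM (49.2 to 51.1) with THP. Its vehicle value was 49.6 CPM (48.7 to 50.6), and the log2 ratio was 0.01. The size of the Rel value depended on scaling: TMM factors shifted the median of all genes by 0.28 on the log2 scale and gave Rel 0.29. Its direction turned with the weighting of cells, at -0.06 with equal weight per cell and -0.01 without the top 5% of cells by UMIs. Across 8011 genes, which are not independent replicates, longer transcripts had lower ratios (Spearman's rho -0.55), and Rel has the longest transcript of the 6, at 7466 bases. After a correction for length its log2 ratio was 0.55 and that of Rela 0.46. Relative to the median of all genes, Rel was higher by 0.19, Rela by 0.53, Nfkb1 by 0.74, Relb by 1.48, Bcl3 by 1.64 and Nfkb2 by 1.68.

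**Figure D1:**
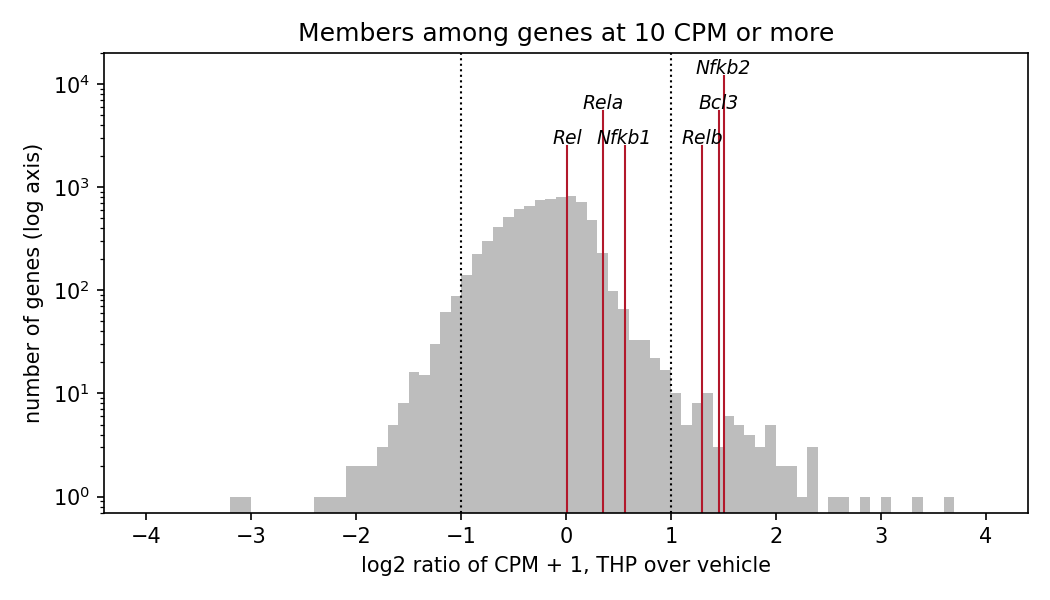
Histogram of log2 ratios (horizontal axis) of the 8012 genes at 10 CPM or more, with the number of genes on a log axis. Red lines mark the 6 members and dotted lines the 2-fold limits. Nfkb2, Bcl3 and Relb lie beyond the upper limit, in a tail that holds 0.911% of genes.

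Levels of different genes were compared per kilobase of the longest annotated transcript. On that scale Nfkb1 led in both libraries, at 29.96 CPM per kb with THP and 20.3 with vehicle. Rela came next in each, at 17.0 and 13.3. In the THP library Relb (16.4), Bcl3 (15.3) and Nfkb2 (14.9) stood close behind Rela, and Rel (6.71) was lowest. In the vehicle library Rel (6.65), Relb (6.49), Bcl3 (5.25) and Nfkb2 (5.09) lay close together, well under Rela. A count of molecules from poly(A) capture need not scale with length, so this order rests on the choice of unit.

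The balance between subunits was computed as UMIs of 1 member per 100 UMIs of another, a quantity that no library scaling factor can move. This measure was chosen after the values were seen. Per 100 Nfkb1 UMIs there were 46.1 Nfkb2 UMIs with THP and 23.3 with vehicle. Relb stood at 116 per 100 Rela UMIs with THP and 59.0 with vehicle. Rel differed the other way, at 109 per 100 Rela UMIs with THP and 138 with vehicle. That last direction turned with the length correction given above, under which the log2 ratio of Rel was above that of Rela. The RNAs of both non-canonical subunits thus had a larger share beside those of their canonical counterparts in the THP library. Protein levels, p100 processing and dimers were not measured. Among the cell gates described below, the ratio of the libraries' values for Relb against Rela was largest in myeloid progenitors, at 100.3 (92.2 to 109) per 100 Rela UMIs with THP and 24.6 (21.7 to 27.9) with vehicle. Intervals of the libraries overlapped for Nfkb2 per 100 Nfkb1 UMIs in stromal cells, at 50.6 (38.7 to 65.7) and 53.4 (39.4 to 71.7), and in mature neutrophils, at 65.5 (50.2 to 85.2) and 48.6 (31.3 to 74.2). They also overlapped for Relb per 100 Rela UMIs in osteoclast-like cells, at 88.6 (73.8 to 106) and 68.7 (53.5 to 87.9).

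Cell types were gated by marker genes. A cell entered a gate when at least 50% of that type's markers each had 1 or more UMIs per 10000 UMIs of the cell, and when no other type had as high a share of its markers. Despite the label of macrophages, the macrophage gate (with C1qa, C1qb, C1qc, Adgre1 and Csf1r among its markers) held 28.5% of THP cells and 21.4% of vehicle cells. The other gates with at least 50 cells in each library were monocyte, mature and immature neutrophil, myeloid progenitor, MHC class II high, osteoclast-like and stromal, which makes 8. Cells in no gate were 24.1% and 15.2%, and tied cells 1.88% and 2.71%. A gate is a range of marker detection and not a proven type: of the cells in the macrophage gate, 719 of 3457 with THP and 510 of 2352 with vehicle had the lowest number of markers that passes. Gate sizes were not compared between libraries, since markers differed too. In summed CPM over all cells, 5 of 5 monocyte, 6 of 6 mature neutrophil, 6 of 6 immature neutrophil and 5 of 5 progenitor and 7 of 7 MHC class II high markers were lower with THP, and no marker of these lists was at 0. Macrophage markers were higher for 5 of 8, at 1547 CPM in sum against 1301. With the same mix of gated cells in both libraries, the log2 ratios were 1.44 for Nfkb2, 1.42 for Bcl3 and 1.25 for Relb, and 3 members passed the rule.

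Within gates, Nfkb1, Nfkb2, Rela, Relb and Bcl3 were higher in the THP library in 8 of 8, each time beyond counting error. Nfkb2 passed the size rule in 7 gates, Bcl3 in 7 and Relb in 6. Nfkb1 passed in 1, and Rela and Rel in 0. The gates in which 1 of the leading 3 fell short were stromal for Nfkb2 (0.85), mature neutrophil for Bcl3 (0.84), and MHC class II high (0.86) and osteoclast-like (0.91) for Relb. With TMM factors these values were 1.13, 1.12, 1.14 and 1.19, and each of the 3 genes passed in 8 of 8 gates. As background, genes past the rule as higher and as lower made up 0.986% and 2.31% in the macrophage gate and 1.1% and 2.39% in the monocyte gate. They made up 2.95% and 26.2% in mature neutrophils, 1.96% and 4.96% in immature neutrophils, and 1.36% and 2.2% in progenitors. The shares were 1.14% and 3.88% in MHC class II high, 0.934% and 3.62% in osteoclast-like, and 3.53% and 6.67% in stromal cells. Mature neutrophils had medians of only 2166 and 1794.5 UMIs per cell, and their intervals are among the widest.

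**Figure D2:**
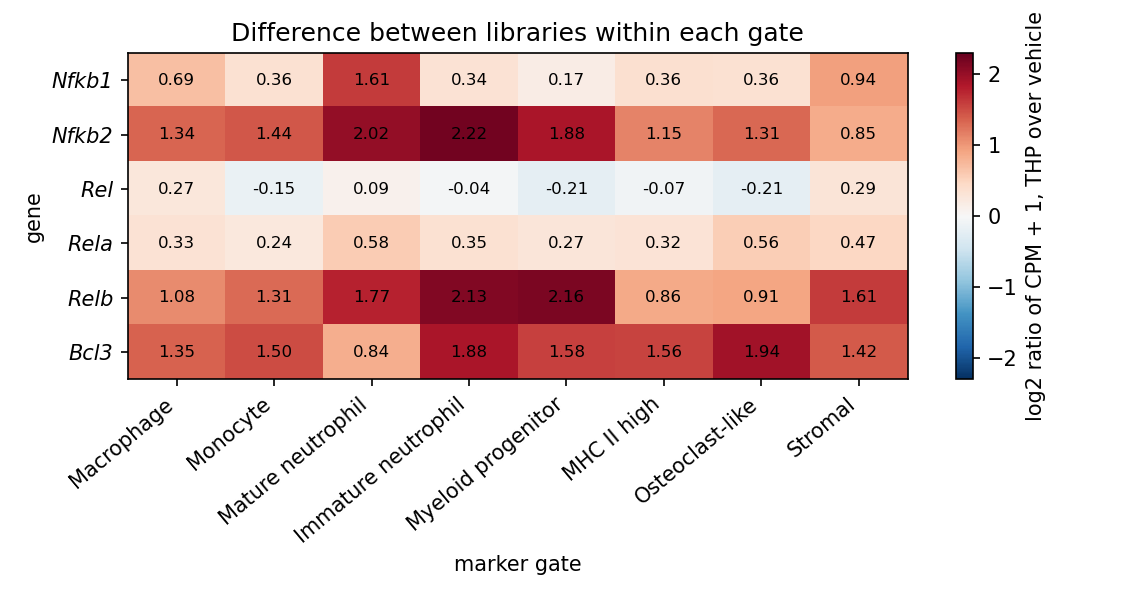
Log2 ratio of CPM + 1, THP over vehicle, for each member (rows) within each marker gate (columns), printed in the cells and coloured from blue (lower) to red (higher). The rows of Nfkb2, Relb and Bcl3 run from 0.84 to 2.22, and the row of Rel from -0.21 to 0.29.

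In macrophage-gated cells Nfkb2 had 63.6 CPM (61.9 to 65.2) with THP and 24.5 CPM (23.3 to 25.7) with vehicle. Bcl3 had 30.1 CPM (29.0 to 31.2) against 11.2 CPM (10.4 to 12.0), and Relb 56.2 CPM (54.7 to 57.8) against 26.0 CPM (24.8 to 27.3). Their folds were 2.60, 2.69 and 2.16. Nfkb1 showed a larger difference here than in the mixed culture, at 149 CPM (146 to 151) with THP and 91.9 CPM (89.5 to 94.3) with vehicle, and its log2 ratio was 0.69. Rel was higher too, at 52.6 CPM (51.1 to 54.1) against 43.5 CPM (41.9 to 45.2), and Rela had 52.2 against 41.3 CPM.

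The myeloid progenitor and both neutrophil gates differed more in the non-canonical pair than the macrophage gate did. In the myeloid progenitor gate (Mpo, Elane, Prtn3, Ctsg and Ms4a3, genes of early granule proteins and their cells) Relb had 36.2 CPM (34.1 to 38.3) with THP and 7.32 CPM (6.53 to 8.19) with vehicle, a fold of 4.94 (4.35 to 5.62). Nfkb2 had 37.6 against 9.48 CPM there, a fold of 3.97 (3.54 to 4.46). Monocyte markers summed to 2763 CPM with THP and 3042 with vehicle in this gate, and to 2256 and 2705 in the monocyte gate. In the immature neutrophil gate the folds were 4.97 (4.19 to 5.92) for Nfkb2 and 4.63 (3.93 to 5.46) for Relb. In macrophage-gated cells the intervals of these folds were 2.45 to 2.75 and 2.04 to 2.28, which do not reach those of either immature gate. The progenitor value of Nfkb1 was 75.9 CPM against 67.3, a log2 ratio of 0.17 and the smallest for that gene among the gates.

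The larger Nfkb2 and Relb folds in the progenitor and immature neutrophil gates went with low vehicle levels. In mature neutrophils the Nfkb2 fold of 4.17 went with a vehicle level of 28.8 CPM (19.9 to 40.2), which ranked first among the gates. With vehicle, Relb ranged 5.59-fold over the gates, from 7.32 CPM in progenitors to 40.9 CPM (38.1 to 43.8) in MHC class II high cells. With THP the range was 2.70-fold, from 36.2 CPM in progenitors to 97.7 CPM (77.3 to 122) in mature neutrophils. C1q genes served as a rough sign of macrophage RNA carried into other droplets, or of doublets. They are also markers of the macrophage gate, so gating limits their level in other gates and they give no amount of carry-over. In the progenitor gate the summed C1qa, C1qb and C1qc level was 9.93% of the macrophage gate's with THP and 3.89% with vehicle. In the immature neutrophil gate it was 13.3% and 6.21%. In the stromal gate it was 16.3% and 3.89%, and that gate's own markers summed to 5631 CPM with THP and 16810 with vehicle. Relb in THP progenitors stood at 36.2 CPM beside 56.2 CPM in THP macrophages. The part of carried-over RNA in these ratios was not tested.

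**Figure D3:**
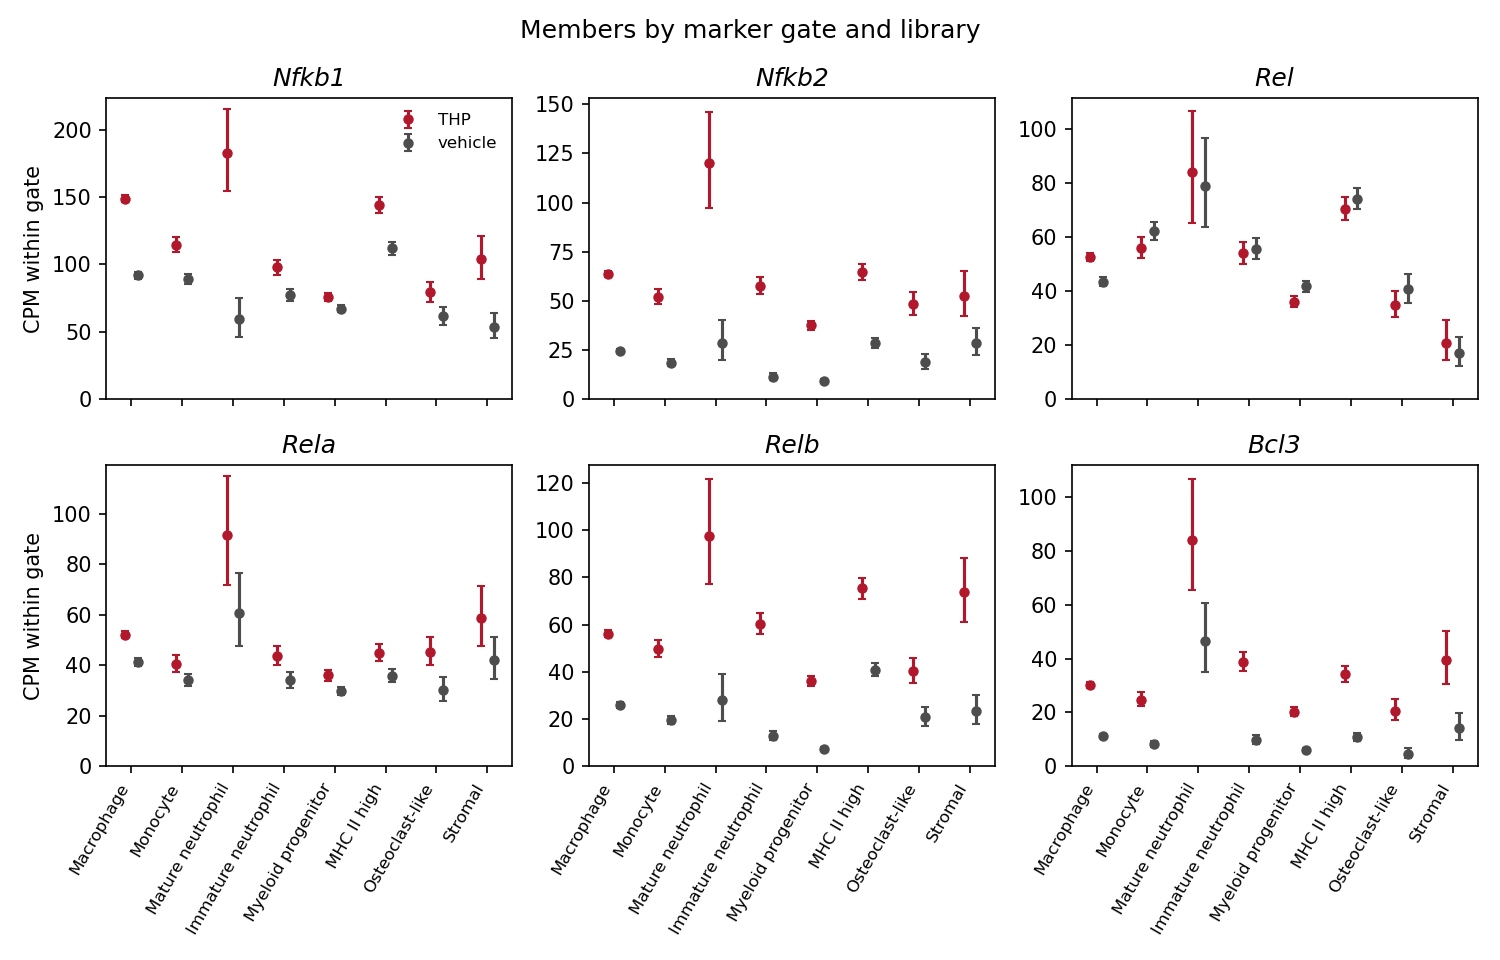
CPM of each member (vertical axes, each from 0) in 8 marker gates, for the THP and vehicle libraries. Points are 1 value per library and bars are exact Poisson 95% intervals. THP points lie above vehicle points for every gene but Rel, whose points are interleaved.

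Levels were ordered over the gates within each library. In the THP library mature neutrophils ranked first for all 6 members. The interval of that gate overlapped the next for Rel and Relb and was separate for Nfkb1, Nfkb2, Rela and Bcl3. Progenitors ranked last for every member but Rel, for which the stromal gate was lowest, at 21.0 CPM with THP and 17.0 with vehicle. The Nfkb1 values of progenitors and osteoclast-like cells overlapped at the low end, as did those of Rela, Relb and Bcl3 in progenitors and the gate above them.

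In the vehicle library the order differed by gene. MHC class II high cells led for Nfkb1, at 112 CPM (107 to 117), with macrophages (91.9) and monocytes (89.2) next and not distinguishable from each other. They also led for Relb, where the interval overlapped that of mature neutrophils. Relb is known for its part in dendritic cell development, but whether the MHC class II high gate holds dendritic cells was not tested. Of its markers (H2-Aa, H2-Ab1, H2-Eb1, Cd74, Flt3, Ccr7 and Cd209a), 4 of 7 reached 50 CPM in the gated vehicle cells. Of these 977 cells, 879 had the lowest number of markers that passes. Mature neutrophils ranked first for Nfkb2, Rel, Rela and Bcl3. For Bcl3 the interval of that gate was separate from the next. For Rel it overlapped those of MHC class II high cells and monocytes, and for Rela that of stromal cells. The Nfkb2 value, 28.8 CPM (19.9 to 40.2), could not be told from those of stromal, MHC class II high, macrophage, osteoclast-like and monocyte cells.

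Bcl3 showed the most uneven vehicle pattern. Its mature neutrophil level was 46.5 CPM (35.0 to 60.5) on 55 UMIs, and the stromal gate came next at 14.2 CPM (9.87 to 19.7). Osteoclast-like cells (Atp6v0d2, Mmp12, Acp5, Ctsk, Ocstamp and Dcstamp) had 4.67 CPM (3.02 to 6.89), so the range over gates was 9.97-fold. With THP, Bcl3 reached 84.1 CPM (65.3 to 107) in mature neutrophils and 20.7 CPM (17.1 to 24.8) in osteoclast-like cells. The fold was lowest in the first of these, at 1.81 (1.25 to 2.63). It was highest in the second, at 4.43 (2.86 to 7.13) with 25 vehicle UMIs. Both intervals overlapped those of other gates.

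Rel had the same order of gates in both libraries, although intervals of some neighbours overlapped. The order ran from mature neutrophils and MHC class II high cells through monocytes, immature neutrophils and macrophages to stromal cells. THP values of Rel exceeded vehicle values in 3 of 8 gates. Counting intervals of the ratio lay above no difference in the macrophage gate and below it in 2 gates, monocyte and progenitor. With TMM factors 5 of the 8 directions changed sign, so the level of Rel relative to vehicle within a gate rests on how libraries are scaled.

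Detection per cell was compared after thinning each cell to 5000 UMIs, which left out 1958 THP and 1966 vehicle cells as shallower. The loss was uneven: 581 of 1441 THP and 724 of 1796 vehicle immature neutrophils went, against 78 and 39 macrophage-gated cells. Fewer than 50 cells of the mature neutrophil gate remained in each library. A UMI of Nfkb2 was then seen in 23.7% (22.8 to 24.5) of the remaining cells with THP and 9.05% (8.47 to 9.67) with vehicle. For Relb the shares were 23.0% and 9.08%, for Bcl3 13.01% and 4.52%, and for Nfkb1 42.9% and 33.1%. Rel was seen in 22.0% (21.2 to 22.9) and 22.4% (21.6 to 23.3), intervals that overlap. No gated type is known to lack these genes, so the share that free RNA alone would give was not measured for them. Without thinning the shares were 53.9% and 25.7% for Nfkb2 and 48.6% and 50.5% for Rel, at median depths of 16113 and 17223 UMIs.

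In thinned macrophage-gated cells the median number of members with a UMI was 2 of 6 with THP and 1 with vehicle. None was seen in 15.1% of 3379 THP cells and 31.7% of 2313 vehicle cells. In the progenitor gate the median was 1 in both libraries, and none was seen in 36.1% of 1602 THP cells and 45.1% of 1952 vehicle cells.

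**Figure D4:**
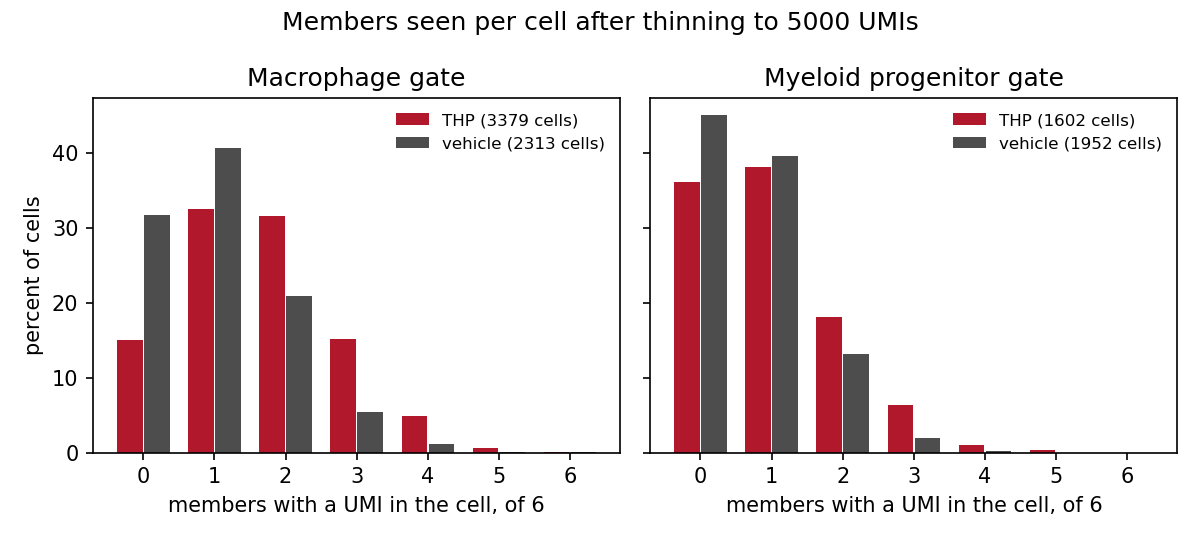
Percent of cells (vertical axis) by the number of members with at least 1 UMI after thinning to 5000 UMIs, in the macrophage and myeloid progenitor gates of each library. In both gates the bar at 0 is lower in the THP library, at 15.1% against 31.7% and at 36.1% against 45.1%.

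Likeness of pattern was measured as Pearson's r of log2(CPM + 1) over 16 points, the 8 gates in 2 libraries, which share their library and depth. Nfkb2 and Relb were each other's nearest gene, with r = 0.96 over all points, 0.85 within the THP gates and 0.93 within the vehicle gates. Nfkbie, the gene of the inhibitor IkB epsilon, was second for both, at 0.91 and 0.94 over all points and 0.48 and 0.71 within the THP gates. The third was Ralgds for Nfkb2 and Traf1 for Relb, at 0.85 and 0.47 within the THP gates. Bcl3 was most like Ier3, Nfkbia and Zc3h12a, at 0.94 for each, and Rela like Ier3 (0.93), Clec2d (0.93) and Slc16a3 (0.92). The genes nearest to Rel were the blood-cell genes Ptpn6 (0.95), Hcls1 (0.94) and Coro1a (0.94), with log2 ratios of 0.19, -0.11 and 0.00. For Nfkb1 they were Cxcl10 (0.90), Pou2f2 (0.84) and Pfn1 (0.84). Among members, Rela and Bcl3 had r = 0.90, whereas Rel stayed at or below 0.23 with every member but Nfkb1, with which r was 0.48. Within the THP gates alone, r of Rel was 0.69 with Nfkb1, 0.68 with Nfkb2, 0.45 with Bcl3, 0.41 with Relb and 0.28 with Rela, and within the vehicle gates 0.55, -0.03, 0.25, 0.20 and 0.16.

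Other genes of the pathway were described by 6 lists of 61 genes, of which those at 10 CPM or more were counted. All 6 lists and the size rule were chosen with earlier results of these data known, so the counts are descriptions. The share of all genes past the size rule, 0.911% higher and 2.97% lower, is the background for each count. Of 10 IkB proteins and feedback inhibitors, 5 passed as higher and 0 as lower, with a median log2 ratio of 1.08 against -0.18 over all genes. Nfkbiz, the gene of another nuclear IkB protein, had 46.8 against 11.5 CPM (1.94). The others were Nfkbia (1.55), Tnip1 (1.47), Nfkbie (1.34) and Tnfaip3 (1.22), of which Nfkbia and Nfkbie encode cytoplasmic inhibitors and Tnfaip3 encodes the ubiquitin-editing enzyme A20. Cyld, a deubiquitinase that restrains the pathway, had a log2 ratio of -0.81. It was -0.53 with TMM factors and -0.26 after the length correction. TMM factors took Nfkbib from 0.95 to 1.23, so that 6 genes of this list passed as higher.

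Upstream signalling genes were counted next. Among the IKK complex and upstream kinases 1 of 11 passed, the IKK-related kinase gene Ikbke, at 114 CPM against 50.5 (1.16); the list's median was -0.19. In the non-canonical arm 2 of 8 passed, Cd40, a receptor that feeds this route, at 14.5 against 3.13 CPM (1.91) and Birc3, which encodes a ubiquitin ligase, at 47.8 against 22.7 CPM (1.04). Map3k14, the gene of the kinase NIK that starts p100 processing, was under 10 CPM in both libraries, at 3.73 and 6.34 CPM. Among receptor adaptors 0 of 8 passed, with Irak3 (0.78, and 1.06 with TMM factors, past the rule) and Ripk1 (-0.65) farthest from 0. None of 7 nuclear cofactor and turnover genes did, Ep300 (-0.76) and Crebbp (-0.45) being farthest from 0. With TMM factors Ripk1, Ep300 and Crebbp were at -0.37, -0.47 and -0.17, and after the length correction at -0.21, -0.16 and 0.16. Of the inducible target genes 10 of 10 passed, with a median of 2.38. Members of that last list, led by Cxcl1 (3.09), Ccl4 (2.88), Il1b (2.69), Tnf (2.56), Ccl3 (2.39) and Cxcl2 (2.37), were known to be higher in these libraries when it was drawn up. Reads of the paralogs Ccl3 and Ccl4 could have been shared in counting.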

How the data were processed

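Single-cell RNA was measured in 1 THP and 1 vehicle library. The deposited values are raw UMI counts per gene and barcode (per the file headers, written by software 3.1.0 in format 2); Cell Ranger, STAR, bcl2fastq and the build mm10 are named in the submitters' processing notes, without versions, annotation release or strand setting. Barcodes with at least 500 genes, 1000 UMIs and at most 10% mitochondrial UMIs were kept; no doublets were removed. Counts were summed over cells and divided by the total. Intervals are exact Poisson for CPM, and exact (Clopper-Pearson) binomial for shares and for folds given both counts. Coordinates and the longest transcripts come from GENCODE M21 (GRCm38), which gave a length for 31011 genes (99.9%); promoters come from RefSeq GRCm38.p6.

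Named genes were the 6 members, up to 6 genes past the size rule per list (else the 2 farthest from 0), and the 3 genes most like each member. Members, lists, markers and rules were chosen with earlier results of these data known. Alternatives changed scaling (edgeR 4.0.16 TMM and RLE factors), pseudocount (0.1 and 10 CPM), cell filter, weighting, cell mix, a running-median length correction over 401 genes, limits, gates and thinning. Ratios, intervals and thinning were tested on simulated data. Python 3.11.15, numpy 2.4.6, scipy 1.17.1 and pandas 2.3.3 were used.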

Additional observations from a re-analysis of the deposited data

Results flagged for a closer look

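Barcodes left out by the cell filter entered none of the comparisons, and all 6 members had higher CPM in the THP barcodes than in the vehicle barcodes. For 4 of them the CPM intervals of the libraries did not overlap. In 1070 THP and 606 vehicle barcodes, Nfkb1 had 200.5 CPM (183 to 220) against 104 CPM (87.5 to 122). Nfkb2 had 71.2 CPM (60.7 to 82.9) against 16.8 CPM (10.8 to 24.97), Relb 49.9 CPM (41.2 to 59.9) against 16.8 CPM (10.8 to 24.97), and Bcl3 27.3 CPM (21.0 to 35.0) against 11.9 CPM (6.93 to 19.0).

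Rel had opposite directions in gated cell types, with a log2 ratio of 0.27 in the macrophage gate and -0.21 in the myeloid progenitor gate. Both lay outside counting error, and the difference between the gates was not tested. With TMM factors the values were 0.55 and 0.07, so the directions were then the same.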

How the results depend on the processing

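The number of members past the size rule as higher was 3 under every alternative but one and the number lower was 0 under all; with a pseudocount of 10 CPM it was 2, since Bcl3 had a log2 ratio of 0.96. Without neutrophil-gated cells, and without barcodes found in both libraries, both chosen after seeing the data, it was also 3. Over all genes, 73 were higher and 238 lower; TMM factors gave 135 and 70, RLE factors 135 and 70, and a 1.5-fold limit 187 and 1387. Receptor adaptors past the rule were 0, and 1 with TMM factors. IkB proteins and feedback inhibitors past the rule as higher were 5, and 6 with TMM factors. The log2 ratio of Rel was -0.01 without the top 5% of cells by UMIs and -0.06 with equal weight per cell, and 0.55 after the length correction; the other members stayed above 0 under every alternative over all cells. Within gates, under 3 other gate rules and TMM factors, Rel alone changed direction, in 5 of 8 gates with TMM factors and 1 of 5 with 3 in 4 markers required. With 3 in 4 markers required, the MHC class II high, osteoclast-like and stromal gates held under 50 cells and were not computed. Under other gates the highest or lowest gate changed for Nfkb1, Nfkb2, Rel, Relb and Bcl3 in at least 1 library. The cause was not tested. No paired analysis was possible because each group has 1 library. The mature neutrophil gate is limited by UMIs per cell and the stromal gate by its 67 and 59 cells.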

Other observations

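The B lineage, T or NK and mast cell or basophil gates held fewer than 50 cells in each library and entered no comparison. In the B lineage gate, which held 44 THP and 21 vehicle cells, Nfkb1 had 173 CPM (109 to 262) on 22 UMIs and 382 CPM (254 to 553) on 28 UMIs, and Rel had 102 CPM (54.5 to 175) and 232 CPM (135 to 372). The Nfkb1 interval of the vehicle cells lay above every vehicle interval of that gene in the larger gates. In the T or NK gate of 35 and 16 cells, Relb had 137 CPM (88.1 to 205) on 24 UMIs and 81.4 CPM (26.4 to 190) on 5 UMIs. Bcl3 had 2 UMIs in 47 mast cell or basophil cells of the THP library and 0 in the 25 of the vehicle library.

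Cells in no gate, 2925 with THP and 1674 with vehicle, had log2 ratios of 1.37 for Nfkb2, 1.20 for Bcl3, 1.14 for Relb, 0.56 for Nfkb1, 0.25 for Rela and -0.03 for Rel.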
